A study of Mus musculus with 8 samples.

Results

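The genes described here encode the receptor tyrosine kinase ErbB4, 3 of its neuregulin ligands, the neurotrophin receptors TrkB and TrkC, insulin-like growth factor 1 and the receptor of that factor. They were taken from the deposited count table by gene name (*Erbb4*, *Nrg1*, *Nrg2*, *Nrg3*, *Ntrk2*, *Ntrk3*, *Igf1* and *Igf1r*), which gave 8 of 23335 gene names on 12 of 27207 rows. Neuregulins are made as membrane proteins with an EGF-like domain that binds ErbB receptors, and in the cortex ErbB4 is known mainly from GABAergic interneurons, where it acts in the formation of their synapses. TrkB binds brain-derived neurotrophic factor and TrkC binds neurotrophin-3, while the insulin-like growth factor receptor binds insulin-like growth factor 1. All of these receptors are kinases whose activated forms recruit shared adaptors that feed the RAS, PI3-kinase and phospholipase C pathways.

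The study measured messenger RNA in single interneurons of mouse frontal cortex, which were freed by dissection and trituration of fresh slices and chosen for red fluorescence. Chandelier cells (ChC), whose synapses sit on the start of pyramidal cell axons, came from Nkx2.1-CreER; Ai14 mice in which tamoxifen at E17.5, late in gestation, switched on the Ai14 red reporter. The parvalbumin cells (Pv) came from Pv-ires-Cre; Ai14 mice, in which Cre follows the *Pvalb* gene, so that any cell type that expresses *Pvalb* can carry the label. Of the 2 mice per cell type, ChC animals 1 and 2 were at postnatal days 31 and 32 and Pv animals 3 and 4 at days 29 and 35, and all 4 were labeled as female and untreated apart from the induction, whose description the labels repeat for the Pv animals. Each animal gave 2 library batches of 16 cells, so that batches 1 and 2 came from animal 1, 3 and 4 from animal 2, 5 and 6 from animal 3, and 7 and 8 from animal 4. Because each cell type had its own mouse line, animals and flow cell, these cannot be told apart from the cell type.

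Values are counts of unique molecular identifiers (UMI), random tags of which each was counted once per transcript and cell. Of 128 cells, 2 had no count, and 63 ChC and 63 Pv cells were used, no 2 of which had equal counts. Depth by batch was 499971, 624479, 2742981 and 1236955 UMI for ChC, and 432386, 474648, 350896 and 868922 for Pv, with 37005 UMI in the median ChC cell against 25698 in the median Pv cell. Levels are given as CPM, the UMI per 1000000 UMI of the batch, and a mean ± SD is over the 4 batches of a cell type, which share 2 animals. Batch 6 stood apart from its label, because its 15 cells held 0 UMI of *Xist*, the transcript of the inactive X chromosome of females, against 48 to 2358 UMI in the other 7 batches. Fold changes without this batch are given for each of the 8 genes that was tested.

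The rows of the table are transcripts on the mm9 build, and the count of a row did not leave out the molecules of rows lying within it. Among pairs of rows of the same gene name in which the span of one lay inside the span of the other, with at least 500 UMI in the inner row, the outer row had at least the count of the inner row in every cell in 419 of 423 pairs. The same held in 246 of 246 pairs of rows with different gene names on the same strand. Depths and CPM rest on sums over rows and can therefore count some molecules more than once. The 12 rows of the 8 genes covered *Erbb4* on chromosome 1 (68086540 to 69154633, minus strand), *Nrg1* on chromosome 8 (32928500 to 33028675, minus), *Nrg2* on chromosome 18 (36177312 to 36356814, minus), *Nrg3* on chromosome 14 (39182137 to 40286376, minus) and *Igf1r* on chromosome 7 (75097143 to 75378553, plus) with 1 row each. *Ntrk2* and *Ntrk3* each had a long and a short row, and *Igf1* had 3 rows on chromosome 10, 2 of which were identical in every cell and the other at 0. No row of another gene lay on the same strand within these spans. On the opposite strand, 4930529F24Rik with 1658 UMI overlapped *Nrg3*. The annotated 3′ end of *Erbb4* in GENCODE lay 7780 bases beyond the end of the row, and that of *Ntrk2* 4003 bases beyond it, and sequence there lies outside the span of these rows.

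To ask whether the receptors and ligands differed between the 2 interneuron types, UMI were summed over the cells of each animal and fitted in edgeR by its quasi-likelihood method, and each p was adjusted over all genes by Benjamini and Hochberg. Of the 8 genes, 6 passed the filter on low counts, and *Nrg1* and *Igf1* did not. None of the 6 passed the threshold of 0.05 on the adjusted p, and neither did any of the 9741 genes tested (0% called), although 623 genes had an unadjusted p under 0.05, 364 of them higher in ChC (3.74%), among these *Erbb4* and *Ntrk2*. DESeq2 called 178 of 9480 genes (1.88%) on the same sums, again with 0 of these 6. The 8 genes were also not among those called by edgeR with no filter, the setting that gave *Nrg1* and *Igf1* an adjusted p (86 of 16531, 0.52%), nor the 6 with batches as samples (6 of 6384, 0.094%) or with cells thinned to 10000 UMI (1 of 5813, 0.0172%). With animals 1, 2, 3 and 4 left out in turn, 17 of 11605 (0.146%), 45 of 11101 (0.405%), 10 of 11750 (0.0851%) and 164 of 11158 genes (1.47%) were called, and 0 of the 6. The largest fold changes among the 6 genes tested were those of *Ntrk2* and *Erbb4*, both higher in ChC. The levels of *Nrg3*, *Nrg2* and *Ntrk3* lay within the spread of the batches of both cell types.

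By the mean over batches the 8 genes stood in the same order in both cell types, although the order of the sparse genes was not stable. For *Ntrk2* and *Ntrk3* the long row was taken, since it holds the count of the short row. In ChC batches *Erbb4* came first, and its lowest batch lay above the highest batch of *Nrg3*, the second, at a ratio of means of 2.93. *Nrg3* exceeded *Ntrk2* 2.01-fold and *Ntrk2* exceeded *Ntrk3* 4.20-fold, again without overlap of batches. From *Ntrk3* on, through *Nrg2*, *Igf1r*, *Nrg1* and *Igf1*, each gene overlapped the next. In Pv batches *Erbb4* and *Nrg3* overlapped, with *Erbb4* higher in 3 of 4 batches and a ratio of means of 1.36. *Nrg3* exceeded *Ntrk2* 4.56-fold without overlap, *Ntrk2* and *Ntrk3* overlapped, and *Igf1* had no UMI. The place of *Nrg2* before *Igf1r* in Pv rested on batch 7, since *Igf1r* was higher in the other 3 batches and, at 57.8 CPM, over the pooled cells, where *Nrg2* had 105 UMI and *Igf1r* 123. In ChC, *Nrg1* and *Igf1*, with 9 and 11 UMI, cannot be ranked. Long genes had more UMI in this table, with a median of 102 CPM among the 663 genes whose span exceeded 250 kb against 16.1 among all 16531 genes with a UMI. Divided by 100 kb of span, an alternative chosen after seeing the data, *Erbb4* remained first in both cell types, at 376 ± 64.3 CPM for ChC and 155 ± 35.3 for Pv (SD, n = 4 each). *Ntrk2*, at 212 ± 70.8 (SD, n = 4) per 100 kb in ChC, then stood before *Nrg3*, at 124 ± 37.9 (SD, n = 4).

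**Figure D1:**
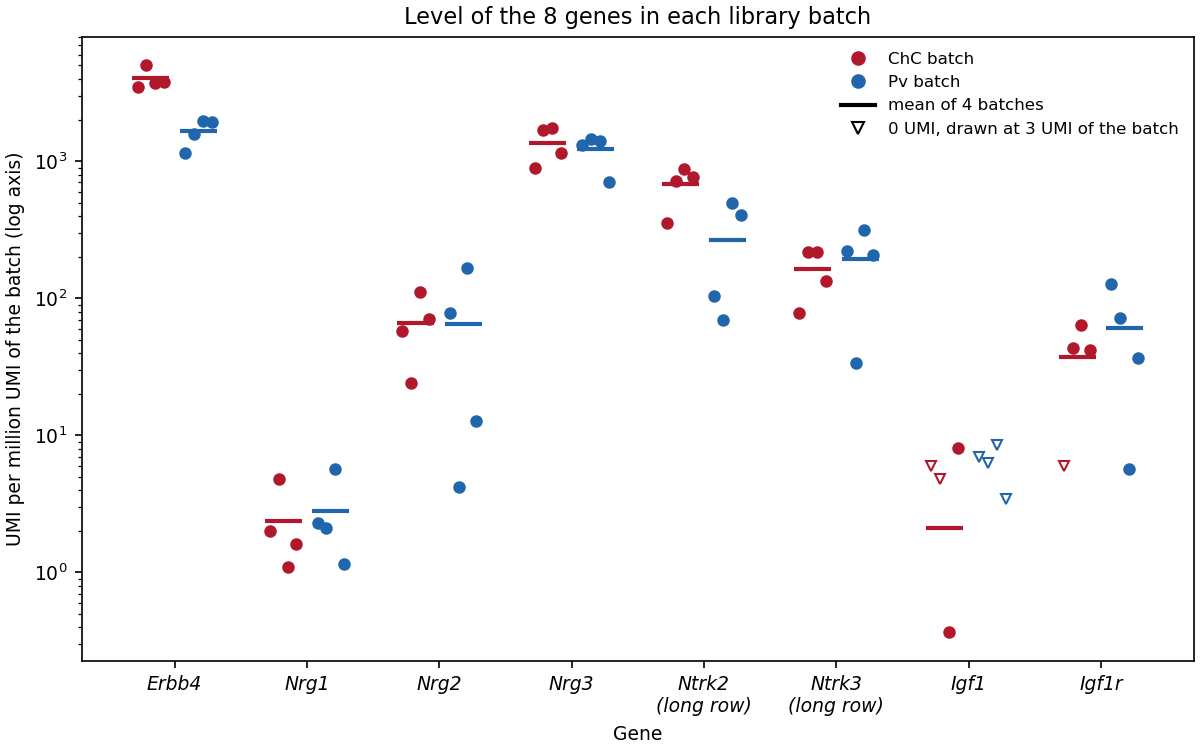
Level of the 8 genes in each library batch, in CPM on a log axis, with ChC batches in red, Pv batches in blue and the mean of 4 batches, zeros included, as a line. Batches with 0 UMI are open triangles drawn at the level that 3 UMI would give, and *Erbb4* is the gene whose ChC batches all lie above its Pv batches.

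*Erbb4*, the neuregulin receptor, was among the most abundant transcripts of both cell types, ranking 4 of 15671 genes with a UMI in ChC and 19 of 15091 in Pv by the row with the most UMI. Its level was 3496, 5029.8, 3744 and 3804.5 CPM in ChC batches 1 to 4, and 1152, 1593, 1955 and 1937 in Pv batches 5 to 8. The 4 ChC batches thus lay above the 4 Pv batches, which was so for 1 of the 6 tested genes of this set and for 212 of the 9741 genes tested in all (2.18%). The mean was 4019 ± 687 for ChC and 1659 ± 377 for Pv (SD, n = 4 each), a ratio of 2.42. By animal, the level was 4348 and 3763 in ChC and 1383 and 1942 in Pv. In the fit of 2 animals against 2, the log2 ratio of ChC to Pv was 1.39 (standard error 0.38, adjusted p = 0.603, edgeR). It stayed between 1.22 and 1.50 under the 19 alternatives, with an adjusted p of 0.0543 to 0.898, and was 1.44 without batch 6.

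The difference in *Erbb4* was also visible cell by cell. Every one of the 126 cells held *Erbb4* UMI. In ChC the median cell was at 3901 CPM of the cell (quartiles 3613 and 4505) and in Pv at 1696 (quartiles 1338 and 2007). Of the 63 ChC cells, 61 lay above the highest Pv cell, which was at 2541, and 63 lay above the Pv median. Among cells with at least 10000 UMI, 47 of 48 ChC cells lay above the highest of 58 Pv cells. These cells share 4 animals and are given as a description. Spread between the cells of a batch was measured as the chi-square of the counts given the depth of each cell, per degree of freedom, which is near 1 when cells differ by counting noise alone. For *Erbb4* it was 1.50, 2.05, 4.81 and 3.52 in the ChC batches and 2.68, 0.942, 0.892 and 1.07 in the Pv batches. The highest values came from the deepest batches, 3 and 4, with 10270 and 4706 *Erbb4* UMI, and in 3 of 4 Pv batches the cells differed about as much as counting alone would give.

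**Figure D2:**
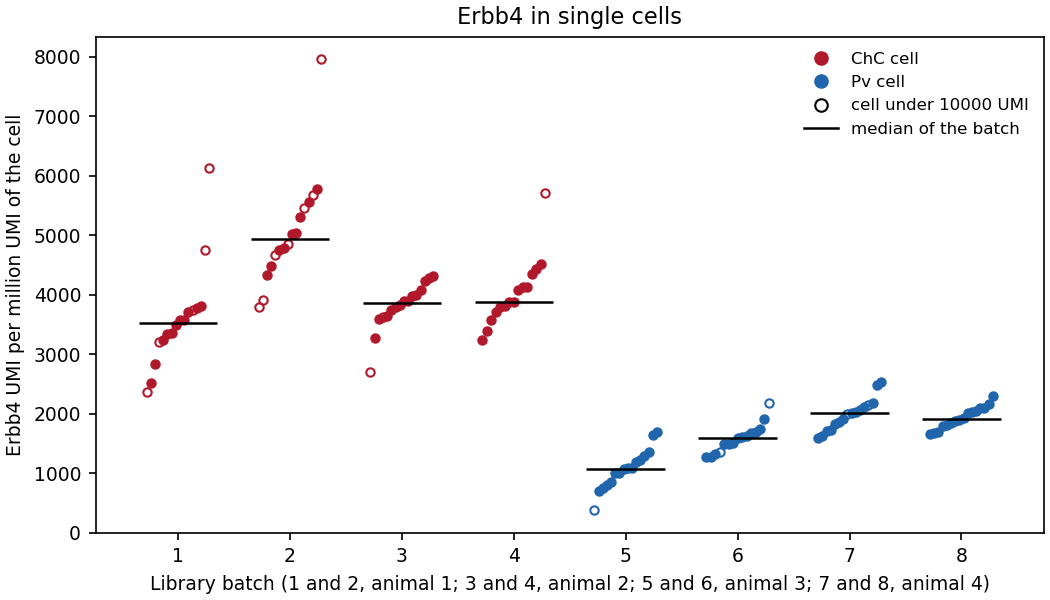
*Erbb4* in each of the 126 cells, in CPM of the cell, by library batch, with ChC cells in red, Pv cells in blue, cells under 10000 UMI as open circles and the median of a batch as a line. Of the 63 ChC cells, 61 lie above the highest Pv cell at 2541.

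Of the neuregulin ligands, *Nrg3*, whose product is a neural ligand of ErbB4, had the most UMI. Its row is also the longest, and per 100 kb of span its mean in ChC was 124 CPM against 36.6 for *Nrg2*. It stood at 894, 1681, 1758 and 1146 CPM in ChC batches and at 1323, 1454, 1411 and 707 in Pv batches, and every cell held its UMI. The 2 cell types overlapped, with means of 1370 ± 418 for ChC and 1223 ± 349 for Pv (SD, n = 4 each). The log2 fold change was 0.38 (standard error 0.48, adjusted p = 0.989, edgeR), 0.35 without batch 6, and -0.02 without animal 4, whose batch 8 was the lowest. In 6 of the 8 batches the chi-square per degree of freedom lay between 0.392 and 1.19, and it was 3.98 in batch 3, the deepest.

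*Nrg2*, a ligand of the same family, was present at lower level and varied widely between batches. Its level was 58, 24.02, 110.5 and 70.3 CPM in ChC batches and 78.6, 4.21, 165 and 12.7 in Pv batches. The Pv batches spanned 39.2-fold, from 2 UMI in batch 6 to 58 UMI in batch 7, and each Pv animal had 1 batch at high and 1 at low level. The means were 65.7 ± 35.7 for ChC and 65.2 ± 74.6 for Pv (SD, n = 4 each). The log2 fold change was 0.58 (standard error 1.12, adjusted p = 0.989, edgeR), and its sign turned without animal 2 (-0.18), without batch 6 (-0.02), without batch 8 (-0.40) and with cells thinned to 10000 UMI (-0.17). With each cell thinned to 10000 UMI and shallower cells left out (15 ChC and 5 Pv cells), 48.6% ± 18.5 (SD, n = 4) of ChC cells and 40.4% ± 35.2 (SD, n = 4) of Pv cells would hold an *Nrg2* UMI, against 74.6% and 61.9% of cells without thinning. With 2 animals against 2 the smallest two-sided exact permutation p is 0.333, so these shares were not tested.

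*Nrg1*, the founding neuregulin gene, was at the edge of detection, with 9 UMI in 8 of 63 ChC cells and 5 UMI in 5 of 63 Pv cells. No batch held more than 3 UMI, and the means of 2.38 ± 1.66 and 2.82 ± 1.99 (SD, n = 4 each) CPM in ChC and Pv correspond to 1 to 3 molecules in a batch. With counts this low, *Nrg1* gives no measure of a difference between the cell types.

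Other genes of the ErbB family and their ligands were sparse beside *Erbb4*. Of the 11 genes in this list (*Egfr*, *Erbb2*, *Erbb3*, *Nrg4*, *Egf*, *Tgfa*, *Hbegf*, *Btc*, *Areg*, *Ereg* and *Epgn*), 9 had a UMI, 3 passed the filter and 0 passed the threshold in either direction, with a median log2 fold change of 3.73 against 0.06 over all genes tested. The 3 that passed had most of their UMI in ChC, and *Nrg4*, which did not pass, was higher in Pv (3.54 against 16.02 CPM), so that this median describes those 3 genes and not the list. *Egfr*, the EGF receptor, had 258 UMI in ChC and 8 in Pv. It was at 0, 96.1, 59.8 and 27.5 CPM in ChC batches and 4.63, 6.32, 5.70 and 1.15 in Pv batches, and overlap came from batch 1 with 0 UMI, which allows up to 6.00 CPM. Its log2 fold change was 3.73 (adjusted p = 0.715, edgeR). *Hbegf*, a ligand shared by EGFR and ErbB4, had 143 and 7 UMI, and ChC batch 1 alone stood at 186 CPM against 0, 17.499 and 1.62 in the other ChC batches. *Erbb2*, the coreceptor of the family, had 0 UMI in ChC and 4 in Pv, and *Erbb3* had 18 and 6.

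A further list was made of genes taken to encode proteins that process ErbB4 or are partners of the receptor. It held 19 genes, of which 17 were tested and 0 called, with 12 higher in ChC, 5 higher in Pv and a median log2 fold change of 0.55. *Cntnap2*, a neurexin-like adhesion protein of axons, had the highest mean of this list over the 8 batches and in ChC, and *Magi2* had the highest in Pv. Whether the product of *Cntnap2* is a partner of ErbB4 was not tested. The level of *Cntnap2* was 3064, 3336, 2453 and 2015 CPM in ChC batches and 1068, 1003, 1280 and 1142 in Pv batches, so that the cell types did not overlap. All ChC batches lay above all Pv batches in 1 of the 17 tested genes of this list. Over all genes tested this held for 212 of 9741 (2.18%). The mean of *Cntnap2* was 2717 ± 596 against 1123 ± 119 (SD, n = 4 each), a ratio of 2.42, with a log2 fold change of 1.42 (adjusted p = 0.616, edgeR). *Magi2*, a scaffold of synaptic junctions, overlapped between the cell types, at 1292 ± 587 for ChC and 1478 ± 698 for Pv (SD, n = 4 each). *Dlg4*, which encodes PSD-95, was at 404 ± 371 and 685 ± 534 (SD, n = 4 each), and the protease genes *Adam10*, *Adam17* and *Bace1* were each under 70 CPM on average in both cell types.

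*Ntrk2* encodes TrkB, and its mean level was higher in ChC. By the long row it stood at 354, 724, 878 and 774 CPM in ChC batches and at 104, 69.5, 493 and 406 in Pv batches. ChC batch 1 lay below Pv batches 7 and 8, so the cell types overlapped. Pv batches 5 and 6, of animal 3, were far below batches 7 and 8, of animal 4. The mean was 682 ± 228 for ChC and 268 ± 213 for Pv (SD, n = 4 each), a ratio of 2.54. In the fit, which used the sum of both rows, the log2 fold change was 1.60 (standard error 0.67, adjusted p = 0.754, edgeR), against 1.57 with the long row alone and 1.51 without batch 6. It was 1.00 without animal 3 and 2.67 without animal 4, and the adjusted p ranged from 0.0510 to 1.00 over the alternatives. With thinning to 10000 UMI, 99.3% ± 1.34 (SD, n = 4) of ChC cells and 78.8% ± 23.8 (SD, n = 4) of Pv cells would hold a UMI of the long *Ntrk2* row.

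Astrocytes also express *Ntrk2*, and the summed level of the 6 astrocyte markers is therefore given beside it. That sum was 52, 450, 326 and 981 CPM in ChC batches and 39.3, 14.7, 1334 and 221 in Pv batches. *Slc1a2* was the most abundant of the 6 and *Gfap* was at 0 in all cells. Within ChC the batch lowest in *Ntrk2* was also lowest in this sum, and within Pv the batches lowest and highest in *Ntrk2* were the lowest and highest in the sum. The ChC batch highest in the marker sum was batch 4, which was also highest in the short *Ntrk2* row (557 CPM) and in both rows added (1331 CPM), while batch 3 was highest in the long row. The part of these molecules in the level of *Ntrk2* was not tested.

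The 2 *Ntrk2* rows differ in their 3′ end, and the short row also starts before the long row. Since a row counts molecules within its span, the short row can hold molecules of both forms, and how many of each was not tested. The short row, on chromosome 13 from 58907957 to 59038392, ends in the terminal exon of the truncated TrkB, which lacks the kinase domain, and the long row, from 58909194 to 59231328, runs on through the last exons of the full kinase form. In GENCODE the full form has 17 coding segments, 6 of which lie beyond the end of the short row. In all 126 cells the long row held at least the count of the short row. The excess of the long row, a net difference because the starts differ, is given as the UMI beyond the short row. Over all cells 2223 of 4599 UMI of the long row (48.3%) were of this kind. The share was 78.0%, 47.6%, 52.8% and 28% in ChC batches and 28.9%, 6.06%, 51.4% and 63.7% in Pv batches. The means over batches were 51.6% ± 20.6 and 37.5% ± 25.5 (SD, n = 4 each), while over the pooled cells the share was 47.4% in ChC and 54.5% in Pv, so the direction depended on how batches were weighted. Batch 6 had 2 of its 33 molecules there.

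**Figure D3:**
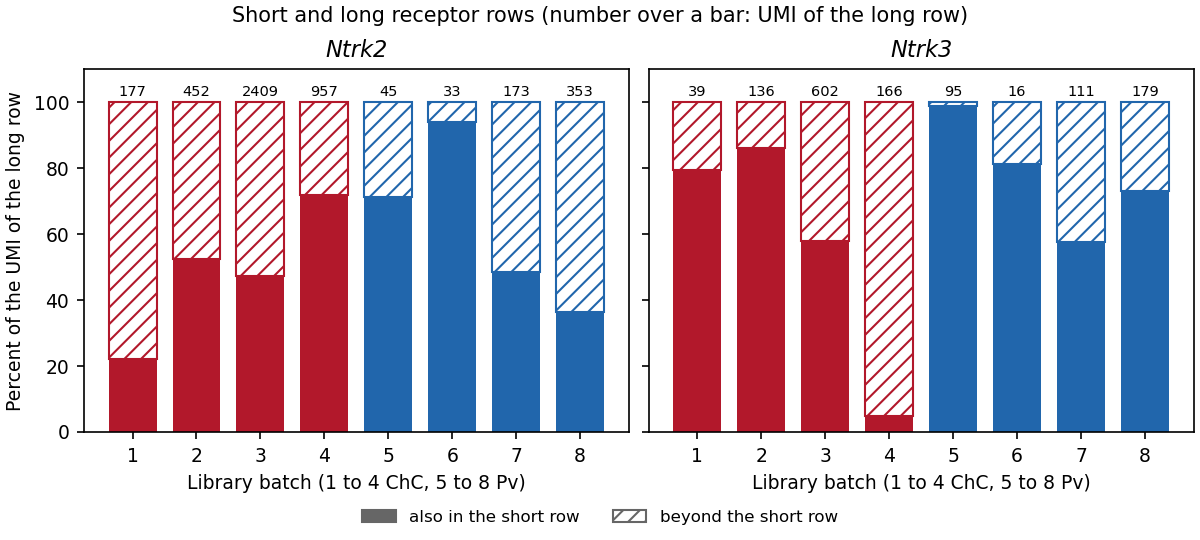
Count of the short row (filled) and excess of the long row over it (hatched) for *Ntrk2* and *Ntrk3*, in percent of the UMI of the long row for each library batch, with ChC in red, Pv in blue and the UMI of the long row over each bar. For *Ntrk3*, batch 4 stands apart, with 95.2% of 166 UMI beyond the short row.

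*Ntrk3* encodes TrkC, and its level overlapped between the cell types. By the long row it stood at 78.0, 218, 219 and 134 CPM in ChC batches and at 219.7, 33.7, 316 and 206 in Pv batches. The mean was 162 ± 68.9 for ChC and 194 ± 118 for Pv (SD, n = 4 each), with batch 6 the lowest of all. The log2 fold change of the summed rows was -0.06 (standard error 0.63, adjusted p = 0.999, edgeR), -0.55 without batch 6 and 0.05 with the long row alone, and it was above 0 without animal 4 or without batch 1, 4 or 5. *Ntrk3* UMI were found in 55 of 63 ChC cells and 56 of 63 Pv cells.

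The short *Ntrk3* row, on chromosome 7 from 85445577 to 85722724 on the minus strand, ends past the last exons of a truncated TrkC, and the long row extends to 85337000. Of 17 coding segments of the full form, 5 lie beyond the short row. Molecules beyond the short row made up 538 of 1344 UMI (40.03%) over all cells. The share was 20.5%, 13.97%, 42.2% and 95.2% in ChC batches and 1.05%, 18.8%, 42.3% and 26.8% in Pv batches. Batch 4 differed from the other batches in its short row, with 8 UMI in 5 of 15 cells, although its long row held 166 UMI in 15 of 15 cells. In Pv batch 5, by contrast, 94 of 95 molecules were in the short row.

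The coding ends of the 4 forms are shown because they are the sequences that tell the truncated receptors from the kinase receptors. Each is the coding part of the last coding exon in GENCODE on mm9, read from the genome 5′ to 3′ on the strand of the gene, with the stop codon in capitals. For *Ntrk2*, the truncated form ends at chr13:59033384-59033421 and the full form at chr13:59229529-59229714, both on the plus strand. For *Ntrk3*, the truncated form ends at chr7:85447515-85447633 and the full form at chr7:85337445-85337630, both on the minus strand.
Ntrk2 truncated: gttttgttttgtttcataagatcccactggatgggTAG
Ntrk2 full: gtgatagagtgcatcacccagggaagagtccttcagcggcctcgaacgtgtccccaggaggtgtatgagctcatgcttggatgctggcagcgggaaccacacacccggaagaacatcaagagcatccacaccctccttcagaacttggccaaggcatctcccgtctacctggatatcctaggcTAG
Ntrk3 truncated: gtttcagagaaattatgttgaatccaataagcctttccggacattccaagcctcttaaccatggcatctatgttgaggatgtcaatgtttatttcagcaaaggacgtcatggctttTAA
Ntrk3 full: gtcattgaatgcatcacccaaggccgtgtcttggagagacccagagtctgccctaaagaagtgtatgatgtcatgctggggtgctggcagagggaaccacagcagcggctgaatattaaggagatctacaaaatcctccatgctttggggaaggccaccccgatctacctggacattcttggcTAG
The ends of the 2 full forms are both 186 bases long and were identical at 129 positions (69.4%), whereas the truncated ends were 38 and 119 bases long.

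The neurotrophins themselves were nearly absent from these cells. Of the 16 genes in the list of neurotrophins and other receptors, 12 had a UMI, 10 were tested and 0 were called, 4 being higher in ChC and 6 in Pv, with a median log2 fold change of -0.19. *Bdnf*, *Ntf5* and *Ngfr* had 0 UMI in all 126 cells, and *Ntf3*, which encodes the ligand of TrkC, had 4 UMI in each cell type. *Kidins220*, a scaffold bound by Trk receptors, had the highest mean of the list over the 8 batches, at 447 ± 229 CPM for ChC and 507 ± 266 for Pv (SD, n = 4 each). *Sort1*, which encodes the sorting receptor sortilin, was next over the 8 batches, at 111 ± 75.7 and 69.4 ± 55.01 (SD, n = 4 each). Both overlapped between the cell types.

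*Igf1r* was found at low level in both cell types, in 37 of 63 ChC cells and 43 of 63 Pv cells. Its level was 0, 43.2, 63.8 and 42.04 CPM in ChC batches and 127, 71.6, 5.70 and 36.8 in Pv batches. Batch 1 held 0 of 499971 UMI, which allows up to 6.00 CPM, and batch 7 held 2 UMI, while their sister batches from the same animals held 27 and 32. The means were 37.3 ± 26.8 for ChC and 60.3 ± 52.1 for Pv (SD, n = 4 each), and the log2 fold change was -0.64 (standard error 1.24, adjusted p = 0.989, edgeR). It was -1.04 without batch 6 and 0.73 without animal 3.

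*Igf1*, the ligand, had 11 UMI in 5 of 63 ChC cells and 0 UMI in 63 Pv cells. Batch 4 held 10 of the 11 UMI, in 4 of its 15 cells with 5 in 1 cell, and batch 3 of the same animal held the other. Microglia also express *Igf1*, and the sum of the 6 microglia markers was 54.97 CPM in batch 4 against at most 3.20 in the other ChC batches. Batch 4 was also the highest ChC batch in the marker sums of other interneurons (1131), astrocytes (981), pyramidal neurons (865) and oligodendrocytes (164). It was not the highest for oligodendrocyte precursors or for endothelial and mural cells. Whether molecules of any of these cell types account for the *Igf1* of batch 4 was not tested. The count of 0 in Pv allows up to 1.41 CPM over the 2126852 UMI of these cells, and up to 4.76% of cells with a UMI. The pooled ChC level was 2.16 CPM and rested on 1 animal, chiefly on batch 4, so that a difference between the cell types was not established.

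Among the insulin and IGF ligands, receptors and binding proteins, 13 of 15 genes had a UMI, 6 were tested and 0 were called, with 5 higher in ChC, 1 in Pv and a median log2 fold change of 1.76 among the 6. *Igfbp2*, which encodes another binding protein and did not pass the filter, had 2 UMI in ChC and 81 in Pv, the latter all in batches 7 and 8 of animal 4, at 140 and 36.8 CPM. In the other direction, *Igfbp3*, which also did not pass, had 92 UMI in ChC and 0 in Pv. Its UMI were all in batches 3 and 4 of animal 2, at 30.6 and 6.47 CPM. *Igfbp4*, which encodes a secreted protein that binds insulin-like growth factors, did not overlap between the cell types, at 32.0, 106, 116 and 38.8 CPM in ChC batches and 30.1, 0, 2.85 and 31.1 in Pv batches. All ChC batches lay above all Pv batches in 1 of the 6 tested genes of this list, beside 212 of 9741 genes tested (2.18%). The lowest ChC batch and the highest Pv batch of *Igfbp4* differed by less than 1 CPM, and its adjusted p was 0.851 (edgeR, log2 fold change 2.23). *Igf2bp3*, which encodes an RNA-binding protein named for *Igf2* mRNA, had the highest mean of the list over the 8 batches and in ChC, though not in Pv, at 151 ± 86.1 for ChC and 36.5 ± 10.2 for Pv (SD, n = 4 each) (log2 fold change 2.23, adjusted p = 0.768, edgeR). *Igf2r*, the receptor that takes up insulin-like growth factor 2, was at 81.7 ± 54.98 and 21.7 ± 23.8 (SD, n = 4 each). *Igf2* had 0 UMI in ChC and 1 in Pv, and *Insr*, the insulin receptor, had 117 and 137 UMI.

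Of the 49 adaptors and kinases shared by these receptors, 48 were in the table, 41 were tested and 0 were called, 25 being higher in ChC and 16 in Pv, with a median log2 fold change of 0.10. *Gab2*, a docking protein of the PI3-kinase pathway, was the gene of this list without overlap, at 38, 83.3, 101.4 and 5.66 CPM in ChC batches and 116, 169, 239 and 205 in Pv batches. The order of Pv above ChC batches was met by 202 of the 9741 genes tested (2.07%). Its mean was 57.1 ± 43.4 for ChC and 182 ± 52.9 for Pv (SD, n = 4 each), with a log2 fold change of -1.31 (adjusted p = 0.920, edgeR). The highest means of the list over the 8 batches were those of *Map2k1*, a kinase that activates ERK, at 346 ± 90.0 and 210 ± 193 (SD, n = 4 each), and of *Plcg1*, a phospholipase C recruited by Trk receptors, at 157 ± 144 and 390 ± 220 (SD, n = 4 each). *Grb10*, *Nras* and *Pik3r1*, named after their values were seen, were the 3 genes of the list with an unadjusted p under 0.05, and their log2 fold changes were 5.20, 4.08 and -3.50 with adjusted p of 0.599, 0.715 and 0.737 (edgeR). These are 3 of 41 tested, beside 623 of 9741 over all genes, and *Grb10* stood at 1128 CPM in batch 1 against 9.61, 233 and 73.6 in the other ChC batches.

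The genes whose level followed *Erbb4* most closely over the 8 batches, among 9740 compared, were *Adamts7* (Pearson r = 0.97), *Gpr119* (0.96), *Olfm3* (0.96), *Scmh1* (0.95) and *Tmed8* (0.95), on log2(CPM + 1). The batches share animals and differ by cell type, so these values describe 8 batches and carry no p. *Olfm3*, a secreted olfactomedin-domain protein, was at 256, 410, 402 and 146 CPM in ChC batches and 2.31, 10.5, 37.05 and 6.91 in Pv batches. *Adamts7* and *Gpr119* were low, at 11.9 and 14.4 CPM on average in ChC and 1.00 and 1.29 in Pv. Of the other genes of the set, *Ntrk2* had r = 0.81 with *Erbb4* and the 4 others that were tested had values from -0.28 (*Igf1r*) to 0.18 (*Nrg2*).

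Marker genes were read to check the labels of the cells, and the most abundant marker of a list is the one with the highest mean over the 8 batches. Of 9 markers of GABAergic interneurons, 8 were in the table and all 8 had UMI, and *Slc32a1*, the vesicular GABA transporter and the most abundant, was at 1933 ± 526 for ChC and 2013 ± 788 for Pv (SD, n = 4 each). *Pvalb*, which drives Cre in the Pv line, was at 120 ± 42.3 for ChC and 976 ± 410 for Pv (SD, n = 4 each), without overlap. All Pv batches lay above all ChC batches in 202 of the 9741 genes tested (2.07%). Of the 6 markers of other interneurons, *Vip* was at 0, *Sst* had 1 UMI in all, and *Cck* was the most abundant. Their sum reached 1131 CPM in ChC batch 4, against at most 283 in the other ChC batches. In Pv it reached 678 in batch 8, against at most 470 in the other Pv batches. *Npy* stood at 377 in batch 4 and 511 in batch 8, against at most 70.5 elsewhere. *Reln* stood at 441 in batch 4, against at most 145 elsewhere. The 6 pyramidal neuron markers summed to 42, 472, 62.7 and 865 CPM in ChC batches and 490, 967, 1613 and 167 in Pv batches, with *Camk2a* the most abundant, while *Slc17a6*, *Neurod6* and *Tbr1* were at 0. The 6 oligodendrocyte markers summed to at most 164 in ChC and 180 in Pv, with *Mbp* the most abundant and *Mobp* and *Mag* at 0, and the 2 markers of their precursors to at most 2.00 and 16.1, with *Pdgfra* the most abundant and *Cspg4* at 0. The 6 microglia markers, with *Csf1r* the most abundant and *C1qa* at 0, reached 54.97 in batch 4 and at most 17.1 in the other batches. The 6 endothelial and mural markers, with *Tek* the most abundant and *Cldn5* at 0, reached 51.2 in ChC and 171 in Pv. The part of molecules from these other cell types in the level of *Erbb4* was not tested.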

How the data were processed

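The authors aligned reads to mm9 with Bowtie 0.12.7 (per the submitters' processing notes), counted each random tag (UMI) once for a transcript in a cell, and the deposited values are these counts, not normalized. Libraries were made from poly(A) RNA and levels were not divided by length. The 2 cells without a count were left out. Here rows of a gene name with identical counts were reduced to 1 and the others summed. UMI per animal (2 against 2) were fitted in edgeR 4.0.16 (R 4.3.3) by the quasi-likelihood test with TMM scaling and the filterByExpr filter, and p was adjusted over all genes at a threshold of 0.05. Also tried were DESeq2 1.42.0, the fit unfiltered, the 8 batches as samples, other sums of rows, thinning to 10000 UMI, no TMM, and each animal or batch left out. Levels, shares and dispersion (batches with at least 50 UMI) were computed in Python 3.11.15 with pandas 2.3.3. The fit was tested on simulated counts at this number of animals. Of 177 genes changed 8-fold it called 12 and missed most, with no false call. Smaller changes were not simulated. Limits for a count of 0 are 3 UMI and, like the shares, cover counting error only. From each of the 5 pathway lists the 2 genes of highest level and up to 3 without overlap of batches were named, with others chosen after their values were seen. The members and lists were chosen with earlier results of these data known. The batches of an animal are not independent, so p-values rest on 4 animals.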

Additional observations from a re-analysis of the deposited data

Results flagged for a closer look

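Among the 4 batches of each cell type, a batch was singled out where its distance to the nearest other batch over the whole range exceeded the critical value of Dixon's Q, which chance gives in about 1 of 20 groups. It was met once in 23 groups, made of the 8 genes and the long and short rows of *Ntrk2* and *Ntrk3* in each cell type without *Igf1* in Pv, which was 0 throughout. *Igf1* in ChC batch 4 was at 8.08 CPM, against 0, 0 and 0.365 in batches 1 to 3, with the gap at 0.955 of the range. It rested on 10 UMI in 4 cells, and the microglia markers were highest in the same batch, at 54.97 CPM in sum against at most 3.20 in the other ChC batches. Among ChC batches, the marker sums of other interneurons, astrocytes, pyramidal neurons and oligodendrocytes were also highest in batch 4. Those of oligodendrocyte precursors and of endothelial and mural cells were not. The cause was not tested.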

How the results depend on the processing

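None of the 6 genes tested passed the threshold under any of the 19 alternatives, nor did *Nrg1* and *Igf1* with no filter, where they had an adjusted p. The count of genes past it, 0 in the fit of animals with edgeR, was 0 with the plain sum over all rows, the row with the most UMI, no TMM, or any batch left out. It was 178 with DESeq2 (99 higher in ChC), 86 with no filter (48 higher in ChC), 6 with batches as samples (5 higher in ChC) and 1 with cells thinned to 10000 UMI. With an animal left out, which leaves 1 animal of that type and assumes that it varies like the others, it lay between 10 (without animal 3) and 164 (without animal 4), with 17 without animal 1 and 45 without animal 2, and the cause was not tested.

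The log2 fold changes of *Erbb4* and *Ntrk2* kept their sign under the 19 alternatives. That of *Nrg2* was -0.17 with thinning and from -0.40 to 1.37 with an animal or batch left out, and that of *Ntrk3* was 0.0482 with the row with the most UMI and from -0.55 to 0.46 with one left out. *Nrg3* was -0.0225 without animal 4 and up to 0.88 with one left out, and *Igf1r* from -1.37 to 0.73 with one left out. The causes were not tested. *Nrg1* and *Igf1* had fitted values with no filter (0.07 and 4.60) and DESeq2 (0.10 and 3.02), and with so few UMI these carry little. Means over cells moved 0 of 16 levels by more than 1 SD. No paired analysis was possible because no animal or replicate number is shared by the cell types.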
